A study of Homo sapiens with 12 samples.

Results

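Collagens are the main structural proteins of the extracellular matrix, built from chains wound into a triple helix. The 43 collagen chain genes described here are those, of 18417 genes measured, whose array probe sets carry a single platform gene symbol made of COL, a number, A and a number. For a gene with several such probe sets, the brightest on average stood for it. By structure, 11 of the genes encode fibrillar chains, 6 encode basement membrane chains and 5 encode chains of beaded filaments. The other 21 encode network, anchoring, fibril-associated (FACIT), transmembrane, multiplexin and unclassed collagens. COL17A1, a transmembrane collagen of the epidermal anchoring complex, was not analysed here.

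Fibrillar chains such as those of types I, III and V assemble outside the cell into the banded fibrils of bone, skin and tendon. Type IV chains form the sheet-like mesh under epithelia and around vessels, and type VI chains form thin beaded filaments that link cells to the surrounding matrix. Breast tumours are known for a dense fibrillar matrix that is laid down largely by stromal fibroblasts, while carcinoma cells in culture also transcribe some chains.

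The cells were of the 1833 subline of MDA-MB-231, a human breast carcinoma line, and 1833 is known for its spread to bone. The 4 kinds of culture differed in construct, selection and serum. In shHMGA2 cells (3 arrays) a hairpin RNA against HMGA2, a chromatin architectural protein, was delivered in the pLKO.1 lentivirus and kept under puromycin. Tet1 cells (2 arrays used) carried Flag-Tet1, a DNA demethylase, and HOXA9 cells (2 arrays used) carried HOXA9, a homeobox factor. Each was in an inducible TRE3G lentivirus beside the Tet-On 3G regulator, which a CMV promoter drives by its vector name. These inducible lines were selected with puromycin and G418 and grown in serum approved for the Tet system, and the labels describe both constructs as induced. Control 1833 cells (3 arrays) grew in ordinary serum, with no vector or selection named. Whether the transduced lines were clones or pools is not stated in the labels. The labels call the arrays biological replicates without saying whether cultures were separate, so p-values measure the spread between these arrays. For Tet1 and HOXA9 samples the source name reads 1834, whereas the title reads 1833.

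RNA was hybridised to Affymetrix Human Gene 1.0 ST arrays, and levels are the authors' log2 RMA values. The replicate 3 column deposited for Tet1 and for HOXA9 equalled the mean of the other 2 columns in 33297 of 33297 probe sets, and both were left out. The 10 arrays fell into 2 sets: correlations over all genes were 0.986 to 0.998 among shHMGA2 and control arrays and 0.993 to 0.997 among Tet1 and HOXA9 arrays, against 0.945 to 0.966 between the sets. Tet1 and HOXA9 were therefore compared with control on the deposited values, after quantile normalization over the 10 arrays and with array medians set equal. In those comparisons array set, serum, selection and construct cannot be told apart. Between shHMGA2 and control, hairpin, lentivirus and puromycin selection cannot be told apart either, as no vector or selection was named for control. TET1 RNA did not separate the arrays by their label: it was 0.51 higher in Tet1 than in control (log2, limma adjusted p = 0.0052) and 0.73 higher in HOXA9 than in control (adjusted p = 0.00042), and the difference of Tet1 minus HOXA9 was -0.23 (adjusted p = 0.69). In shHMGA2, TET1 was 2.41 higher than in control (limma adjusted p = 1.3e-07). HMGA2 and HOXA9 had no probe set of their own symbol alone and were not analysed here. Tet1 and HOXA9 below stand for the arrays so labelled.

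The collagen genes divided unequally over the comparisons. Between shHMGA2 and control, 5 of 43 passed the test, a share of 11.6% against 26.2% of all genes. Of these, 2 were higher and 3 lower, and of all genes 13.6% were higher and 12.6% lower. Between Tet1 and HOXA9, 2 of 43 passed, a share of 4.65% against 0.434% of all genes. Both were higher in Tet1, as were 0.114% of all genes, while no collagen gene and 0.32% of all genes were lower (limma). On the deposited values 42 of 43 passed between Tet1 and control, 97.7% against 77.1% of all genes. Of these, 40 were higher and 2 lower, and of all genes 53.9% were higher and 23.2% lower. Between HOXA9 and control 41 of 43 passed, 95.3% against 75.7% of all genes, with 39 higher and 2 lower where 54% of all genes were higher and 21.6% lower. A gene passed where its limma p, adjusted across the 18417 genes by Benjamini and Hochberg's procedure, was under 0.05. Tet1, HOXA9 and shHMGA2 were set against the same control arrays.

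The arrays of many genes did not overlap between groups. The groups lay apart for 13 collagen genes between shHMGA2 and control (40.5% of all genes did) and for 15 between Tet1 and HOXA9 (41.3% of all genes). They lay apart for all 43 between Tet1 and control (85.7% of all genes) and for 42 between HOXA9 and control (82.8% of all genes). The genes that missed the test against control were COL6A5 in both lines (0.10 in Tet1 and 0.10 in HOXA9) and COL26A1 in HOXA9 (0.23, limma adjusted p = 0.058). With equal array medians COL6A5, which lay under the 30th percentile of its arrays in every group, was instead called lower (-0.37 in Tet1 and -0.36 in HOXA9).

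The comparisons with control across the array sets moved with the scaling. For Tet1 minus control the median over all genes was 0.25 on the deposited log2 values, -0.00060 after quantile normalization and -0.22 with equal array medians. For HOXA9 minus control it was 0.24, -0.02 and -0.21 under the same 3 scalings. After quantile normalization 29 collagen genes were higher and 2 lower in Tet1, where 32.6% of all genes were higher and 33.3% lower, and 24 were higher and 2 lower in HOXA9, where 29.7% were higher and 34% lower. With equal array medians 25 were higher and 3 lower in Tet1, where 21.9% of all genes were higher and 51.4% lower, and 22 were higher and 4 lower in HOXA9, where 20.3% were higher and 51.1% lower. Calls that kept their direction under all 3 scalings numbered 26 for Tet1 (24 higher and 2 lower) and 22 for HOXA9 (20 higher and 2 lower). Of all genes, 20.1% were higher and 21.5% lower under all 3 scalings in Tet1, and 18% were higher and 20.5% lower in HOXA9. The 5 calls between shHMGA2 and control and the 2 between Tet1 and HOXA9 also held under all 3 scalings, as did calls of 11.2% of all genes higher and 12.5% lower in shHMGA2, and 0.103% higher and 0.277% lower in Tet1 against HOXA9. The median collagen difference from control was 0.78 on the deposited values, 0.36 after quantile normalization and 0.31 with equal medians in Tet1, and 0.66, 0.23 and 0.21 in HOXA9.

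**Figure D1:**
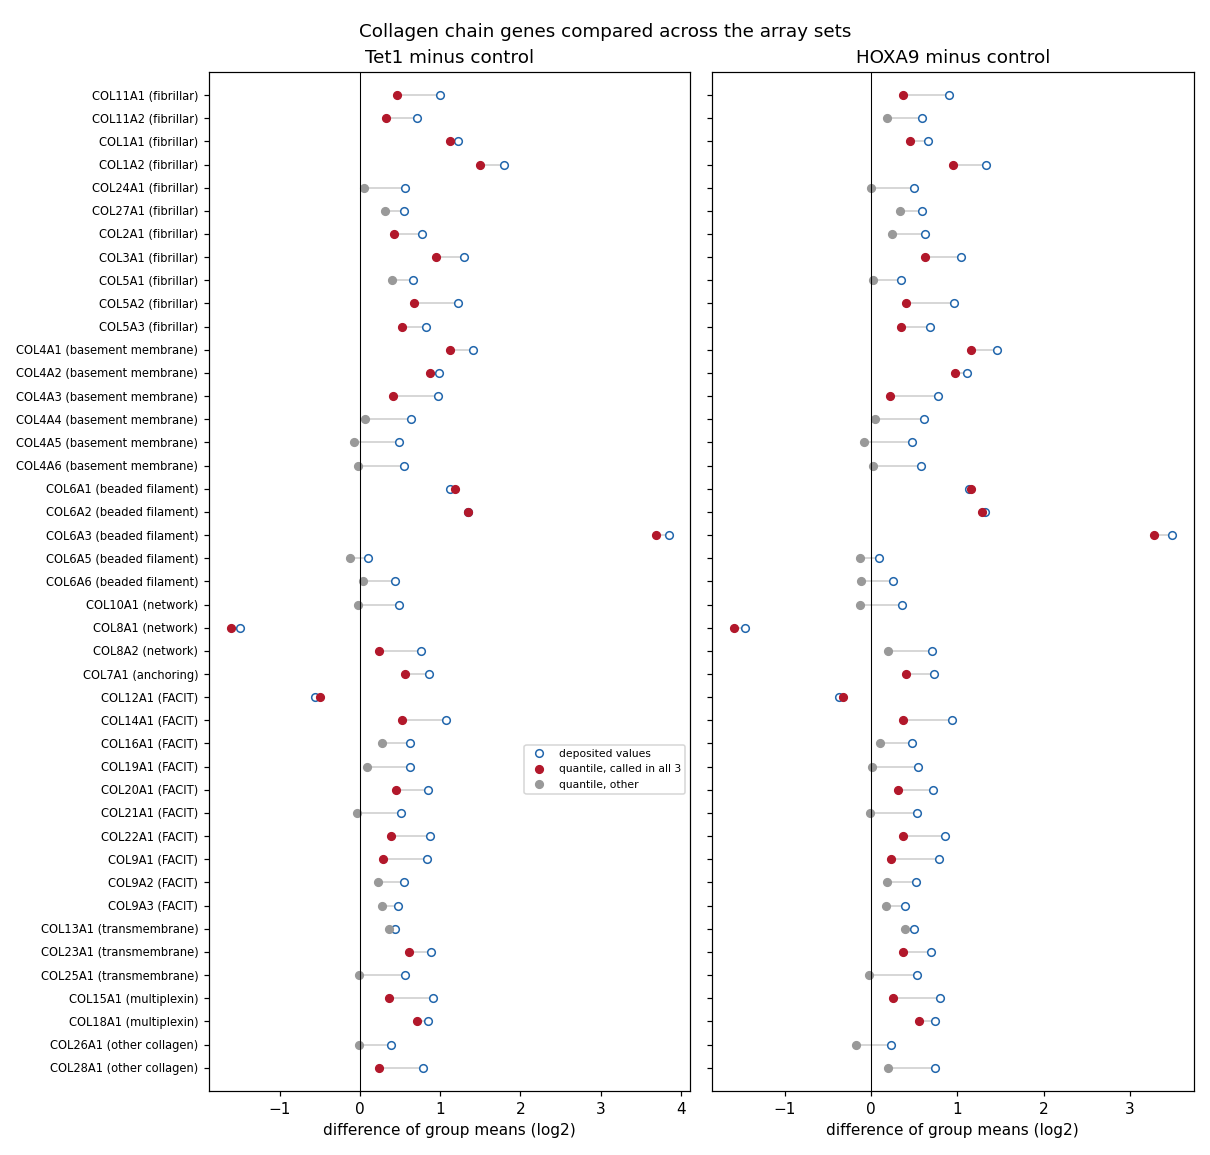
Difference of group means from control (log2, x axis) for the 43 collagen genes in Tet1 (left) and HOXA9 (right). Open points are deposited values and filled points the values after quantile normalization, red where the call held under all 3 scalings and grey otherwise; COL6A3 lies farthest right at 3.84 and 3.48, and COL8A1 and COL12A1 are the genes left of 0 in both panels whose calls held.

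The median collagen gene ranked below the middle of the array in every group. No detection call came with the values. A level under percentile 30 of an array's probe sets (6.02 in shHMGA2, 6.57 in Tet1, 6.57 in HOXA9 and 6.02 in control) is not known to lie above background. Within an array set, a difference from such a level may understate the change. Across the sets percentile 30 was itself higher in Tet1 and HOXA9, so deposited differences of dim genes may instead be overstated. COL24A1, under percentile 30 in every group, was 0.56 above control in Tet1 on the deposited values and 0.06 above after quantile normalization. By group mean, 34 of 43 collagen genes lay above percentile 30 in shHMGA2, 38 in Tet1, 38 in HOXA9 and 36 in control. Ranked within each array group, the median collagen gene stood at percentile 36.8 of all genes in shHMGA2, 48.2 in Tet1, 45.8 in HOXA9 and 37.2 in control. Beyond the 75th percentile stood 1 collagen gene in shHMGA2, 4 in Tet1, 4 in HOXA9 and 2 in control. In bulk RNA, fewer cells that transcribe a gene and less RNA per cell cannot be told apart.

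**Figure D2:**
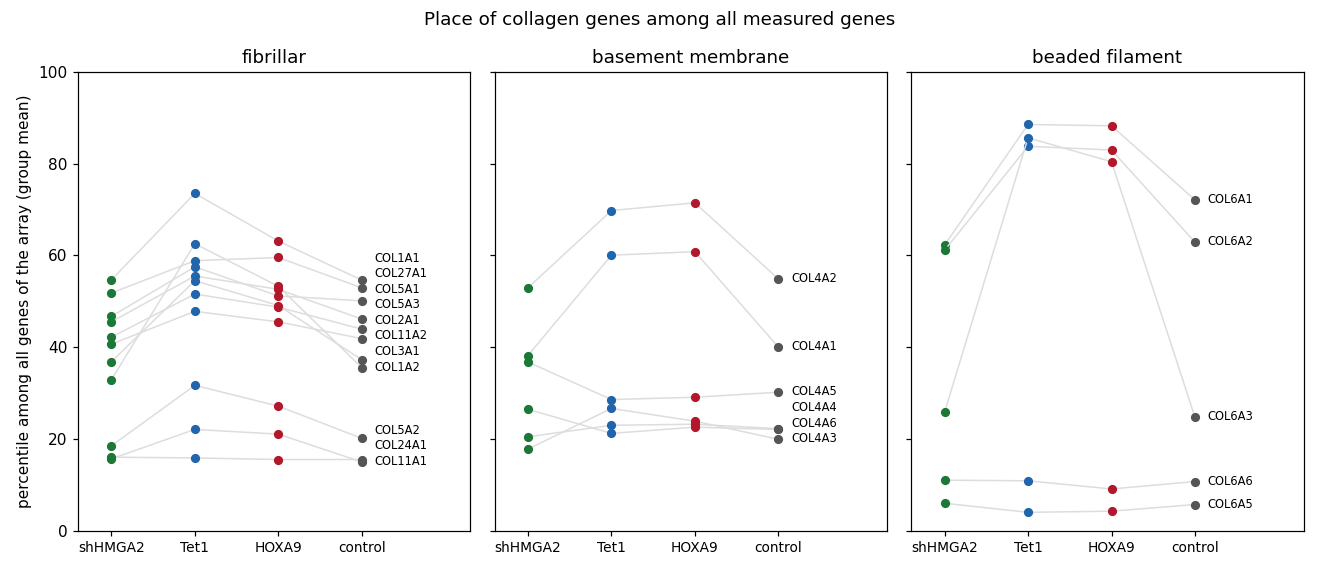
Percentile of each fibrillar, basement membrane and beaded filament gene among all measured genes (y axis, group mean) in the 4 groups; grey lines join the points of a gene. COL6A3 stood at percentile 25.8 in shHMGA2, 85.6 in Tet1, 80.4 in HOXA9 and 24.7 in control, and COL6A5 stayed between 3.96 and 5.94 in every group.

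COL6A3, of the type VI chains of beaded filaments, held the widest difference from control of the 43 genes in each inducible line. It encodes the long alpha 3 chain that completes the classic type VI trimer with the alpha 1 and alpha 2 chains. It read 10.16 and 10.23 in the Tet1 arrays and 9.81 and 9.86 in the HOXA9 arrays, and 6.44, 6.52 and 6.28 in shHMGA2 against 6.42, 6.32 and 6.32 in control. The groups of the Tet1 and HOXA9 set did not overlap with the other set, whereas shHMGA2 and control did. Tet1 exceeded control by 3.84 (SE 0.08, limma adjusted p = 2.8e-11) and HOXA9 exceeded it by 3.48 (SE 0.08, adjusted p = 6.4e-11). Under the other scalings the differences were 3.38 to 3.69 in Tet1 and 3.03 to 3.28 in HOXA9. Tet1 was 0.36 above HOXA9, which did not pass (limma adjusted p = 0.13).

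COL6A2, on chromosome 21 beside COL6A1, read 10.05 and 10.03 in Tet1, 10.02 and 10.02 in HOXA9, and 8.77, 8.68 and 8.65 in control, so that both inducible lines lay above every control array. The differences were 1.34 in Tet1 (limma adjusted p = 1.1e-08) and 1.32 in HOXA9 (adjusted p = 1.5e-08). COL6A1 read 10.47 and 10.43 in Tet1, 10.48 and 10.45 in HOXA9, and 9.67, 9.17 and 9.15 in control. It did not overlap with control either, nor did 85.7% of all genes in Tet1 and 82.8% in HOXA9. The differences were 1.12 in Tet1 (limma adjusted p = 2.1e-05) and 1.13 in HOXA9 (adjusted p = 2.2e-05). All 3 genes of the classic trimer kept these calls under all 3 scalings. Of all genes, 20.1% in Tet1 and 18% in HOXA9 were higher under all 3 scalings. COL6A5 and COL6A6, later-described type VI chains, had group means of 5.22 to 5.98, under the 30th percentile in every group.

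Of the 3 classic type VI chains, COL6A1 alone passed between shHMGA2 and control. It fell in shHMGA2, where it read 8.78, 8.80 and 8.44, below all 3 control arrays (9.67, 9.17 and 9.15). The difference was -0.66 (SE 0.13, 95% interval -0.94 to -0.37, limma adjusted p = 0.0029), and without control replicate 1, the highest control, it was -0.49 (adjusted p = 0.0048). COL6A2 read 8.60, 8.62 and 8.54 in shHMGA2, just under its control arrays, and its difference of -0.12 did not pass (95% interval -0.23 to 0.0043, limma adjusted p = 0.15). COL6A3 differed by 0.06 (95% interval -0.09 to 0.21, limma adjusted p = 0.60). Whether the differences of COL6A1 and COL6A2 were themselves unlike was not tested.

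The 250 bases upstream of the starts of COL6A3 and COL6A2 are shown because these 2 chains of the same trimer had the widest and the next widest beaded filament differences. The sequences are from RefSeq on GRCh38.p14, 5′ to 3′ on the gene's strand, with matches to any of 4 motifs on either strand in capitals: the TATA box TATAAA, the CCAAT box CCAAT, the GC box GGGCGG and the AP-1 site TGANTCA. COL6A3 lies at chr2:237414165-237414414 on the minus strand, and COL6A2 at chr21:46097862-46098111 on the plus strand.
COL6A3: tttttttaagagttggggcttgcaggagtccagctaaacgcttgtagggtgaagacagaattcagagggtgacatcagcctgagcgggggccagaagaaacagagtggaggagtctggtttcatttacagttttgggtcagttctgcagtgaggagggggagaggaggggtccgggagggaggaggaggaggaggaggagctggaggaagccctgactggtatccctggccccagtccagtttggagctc
COL6A2: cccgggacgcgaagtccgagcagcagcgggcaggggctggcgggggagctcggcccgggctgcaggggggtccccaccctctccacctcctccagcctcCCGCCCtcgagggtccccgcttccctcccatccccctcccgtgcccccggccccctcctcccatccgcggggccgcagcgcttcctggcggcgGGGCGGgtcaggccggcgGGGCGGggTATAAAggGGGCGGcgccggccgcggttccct
The COL6A3 stretch held 3 CpG dinucleotides and no match to the 4 motifs. The COL6A2 stretch held 28 CpG dinucleotides, 1 TATA box and 4 GC boxes. Such matches are descriptions of the letters. Upstream windows were at hand for 31 of the 43 genes (43 windows, since some genes have several starts). A GC box stood in 55.8% of the collagen windows and 42.6% of all 35116 windows, a TATA box in 16.3% and 10.7%, a CCAAT box in 25.6% and 32%, and an AP-1 site in 2.33% and 6.57%.

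The 6 genes of the type IV chains of the basement membrane lie in 3 head-to-head pairs in GRCh38.p14, with COL4A1 and COL4A2 on chromosome 13, COL4A3 and COL4A4 on chromosome 2, and COL4A5 and COL4A6 on the X chromosome. The starts are 127, 419 and 380 bases apart, the last counted from the nearer of the 2 COL4A6 starts. On the deposited values all 6 were higher in each inducible line, and COL4A1, COL4A2 and COL4A3 kept that call under all 3 scalings. Of all genes, 53.9% in Tet1 and 54% in HOXA9 were higher on the deposited values, and 20.1% and 18% under all 3 scalings. COL4A1 and COL4A2 make the type IV mesh of nearly all tissues. Of the 6 genes, COL4A5 and COL4A6 were called higher in shHMGA2, as were 13.6% of all genes.

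COL4A1, the alpha 1 chain, read 8.59 and 8.68 in Tet1, 8.69 and 8.68 in HOXA9, and 7.23, 7.15 and 7.29 in control. COL4A2, its partner, read 9.14 and 9.16 in Tet1, 9.30 and 9.26 in HOXA9, and 8.16, 8.13 and 8.20 in control. For both genes every inducible array exceeded every control array. Of all genes, 85.7% in Tet1 and 82.8% in HOXA9 did not overlap with control. COL4A1 was higher by 1.42 in Tet1 (limma adjusted p = 1.5e-08) and by 1.46 in HOXA9 (adjusted p = 1.4e-08). COL4A2 was higher by 0.99 in Tet1 (limma adjusted p = 2.7e-07) and by 1.11 in HOXA9 (adjusted p = 1.4e-07). Both kept their calls under all 3 scalings, with differences of 0.52 to 1.16 under the other 2. In shHMGA2, COL4A1 (7.14, 7.22 and 7.09) and COL4A2 (7.92, 8.16 and 8.09) overlapped with control, and their differences of -0.07 and -0.11 did not pass (limma adjusted p = 0.43 and 0.27).

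COL4A5, the alpha 5 chain mutated in X-linked Alport syndrome, read 7.05, 7.04 and 7.11 in shHMGA2 and 6.73, 6.74 and 6.52 in control. COL4A6, its X-linked partner, read 6.42, 6.41 and 6.53 in shHMGA2 and 6.24, 6.21 and 6.13 in control. Neither gene overlapped between the groups, nor did 40.5% of all genes. COL4A5 rose by 0.40 (SE 0.07, limma adjusted p = 0.0011) and COL4A6 by 0.26 (SE 0.06, adjusted p = 0.0078). Both calls held under the 3 scalings and when any shHMGA2 or control array was left out, where the differences ran from 0.33 to 0.44 for COL4A5 and from 0.22 to 0.28 for COL4A6. Against control, the deposited values of COL4A5 were higher by 0.48 in both Tet1 and HOXA9, but after quantile normalization the differences were -0.07 and -0.08, so no direction is given. COL4A6 likewise was higher by 0.55 in Tet1 and by 0.58 in HOXA9 on the deposited values, against -0.03 and 0.02 after quantile normalization. Of the pair on chromosome 2, COL4A3 was higher under all 3 scalings in both lines, by 0.41 to 0.98 in Tet1 and by 0.22 to 0.78 in HOXA9, while COL4A4 was not.

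The 126 bases between the starts of COL4A1 and COL4A2, and the 250 bases upstream of COL4A5, are shown because COL4A1 and COL4A2 share the first and were higher in both inducible lines, and COL4A5 had the wider of the 2 type IV differences that passed in shHMGA2. Builds, orientation and capitals are as for the type VI chains. The first stretch lies at chr13:110307158-110307283 and is printed on the strand of COL4A2 (plus), and the COL4A5 stretch lies at chrX:108439588-108439837 on the plus strand.
COL4A1 to COL4A2: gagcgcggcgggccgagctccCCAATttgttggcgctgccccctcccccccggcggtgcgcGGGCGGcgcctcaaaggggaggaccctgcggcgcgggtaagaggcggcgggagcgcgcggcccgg
COL4A5: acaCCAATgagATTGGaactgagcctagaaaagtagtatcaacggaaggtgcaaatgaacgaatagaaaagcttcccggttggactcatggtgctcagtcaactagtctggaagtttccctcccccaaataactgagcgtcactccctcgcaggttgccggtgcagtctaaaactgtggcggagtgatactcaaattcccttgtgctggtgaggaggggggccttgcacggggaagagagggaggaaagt
The COL4A1 to COL4A2 stretch held 20 CpG dinucleotides with 1 CCAAT box and 1 GC box, and the COL4A5 stretch held 8 CpG dinucleotides and 2 CCAAT boxes, 1 on each strand.

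Both collagen genes that passed between Tet1 and HOXA9 were fibrillar. COL1A1 and COL1A2 encode the 2 chains of type I collagen, the main protein of bone matrix. COL1A1 read 9.38 and 9.35 in Tet1 and 8.83 and 8.78 in HOXA9. It read 8.10, 8.14 and 8.26 in shHMGA2 and 8.23, 8.14 and 8.07 in control, which overlapped. COL1A2 read 8.76 and 8.76 in Tet1 and 8.35 and 8.27 in HOXA9. It read 6.70, 6.83 and 6.97 in shHMGA2 and 7.02, 6.95 and 6.93 in control, also with overlap. For both genes the Tet1 arrays stood highest, the HOXA9 arrays next, and shHMGA2 and control together below them.

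COL1A1 was higher in Tet1 than in HOXA9 by 0.56 (SE 0.08, 95% interval 0.39 to 0.73, limma adjusted p = 0.0084), and COL1A2 by 0.46 (SE 0.08, 95% interval 0.27 to 0.64, adjusted p = 0.044). With 2 arrays a group, both calls could be lost by leaving out 1 array. Over all genes, too, fewer passed when a Tet1 or HOXA9 array was left out. In the full fit 6 of the 43 genes had an unadjusted limma p under 0.05, as did 1687 of all 18417 genes. Leaving out an array here leaves a group with 1 array, whose spread limma takes to be like that of the other groups; this holds for every value without a Tet1 or HOXA9 array. The sizes moved little when an array was left out, from 0.54 to 0.58 for COL1A1 and from 0.42 to 0.50 for COL1A2. COL3A1, COL5A1 and COL5A2, the type III chain and 2 type V chains that join type I fibrils, also had higher values in both Tet1 arrays than in both HOXA9 arrays. Their differences of 0.26, 0.32 and 0.26 did not pass (limma adjusted p = 0.22, 0.29 and 0.20). The median difference of Tet1 minus HOXA9 was 0.16 over the 11 fibrillar genes, -0.02 over the 6 basement membrane genes and 0.03 over the 5 beaded filament genes, against 0.0094 over all genes. The fibrillar median was 0.01 without HOXA9 replicate 2, 0.29 without HOXA9 replicate 1, 0.17 without Tet1 replicate 1 and 0.18 without Tet1 replicate 2, so it rested on HOXA9 replicate 2. Medians with an array left out were chosen after seeing the data.

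HOXA9 replicate 2 read lower than its fellow arrays over the collagens. It was the lowest of the 4 Tet1 and HOXA9 arrays for 33 of 43 genes (76.7%), and for 33.7% of all genes. The median SD between replicates of a collagen gene was 0.14 in HOXA9 and 0.04 in Tet1. COL11A1, a minor fibrillar chain of cartilage, shows this spread: it read 6.82 and 6.77 in Tet1 and 6.86 and 6.52 in HOXA9, with 5.82, 5.85 and 5.70 in control. Over all 43 genes the median of Tet1 minus HOXA9 was 0.08, and it was -0.03 without HOXA9 replicate 2 and 0.20 without HOXA9 replicate 1. The differences without HOXA9 replicate 2 were 0.54 for COL1A1 (limma adjusted p = 0.12) and 0.42 for COL1A2 (adjusted p = 0.36). For HOXA9 minus control the collagen median of 0.66 was 0.80 without HOXA9 replicate 2 and 0.54 without HOXA9 replicate 1.

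**Figure D3:**
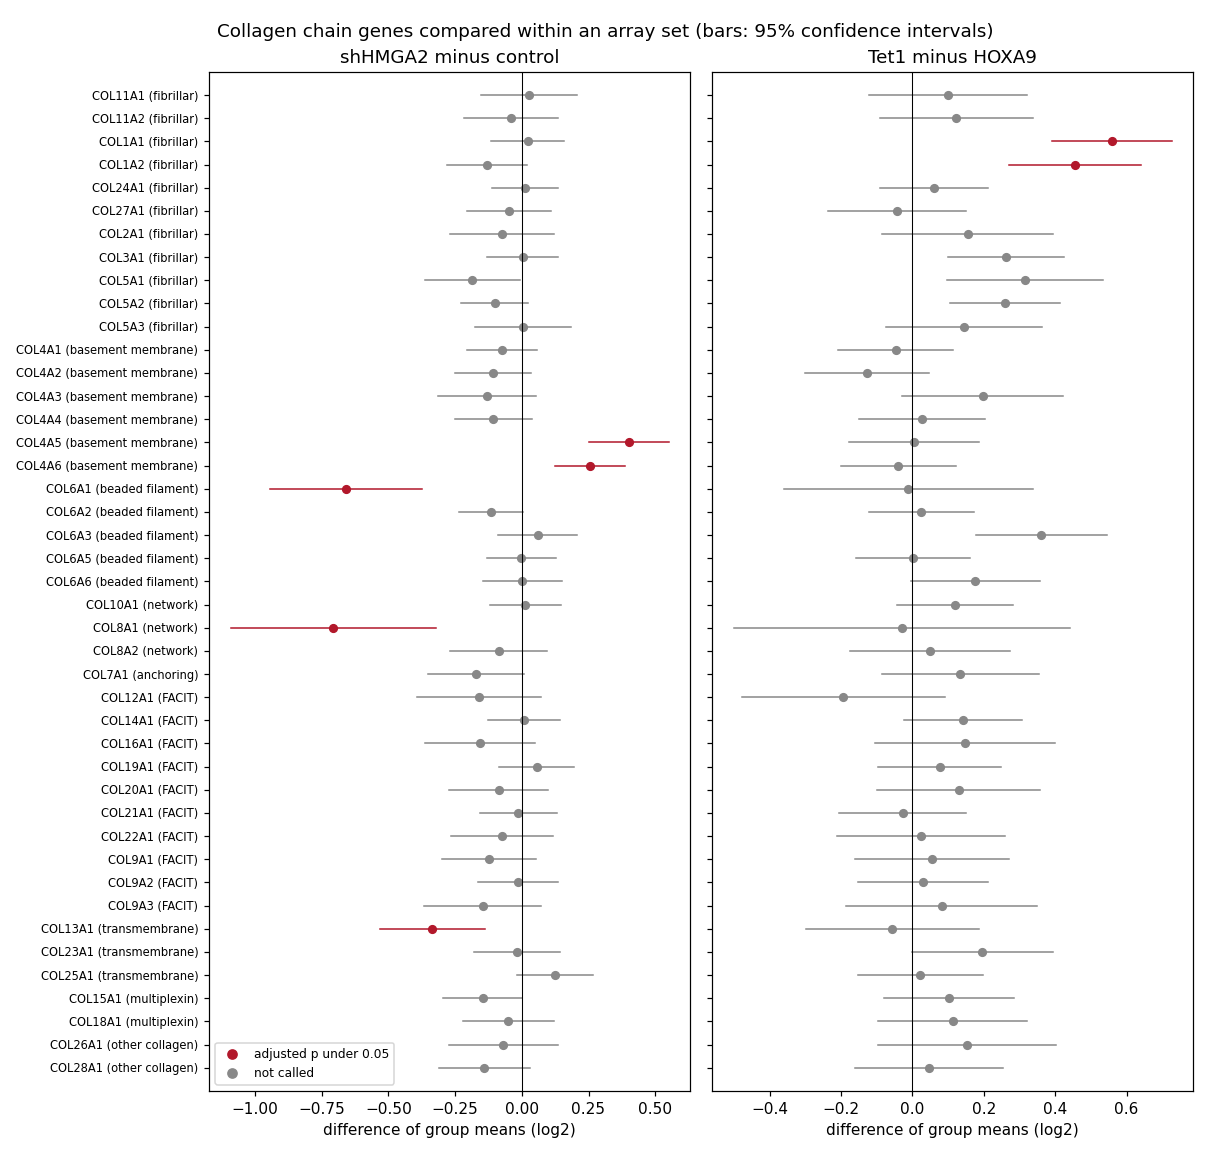
Difference of group means (log2, x axis) with its 95% interval for the 43 collagen genes, shHMGA2 minus control (left) and Tet1 minus HOXA9 (right). Red marks an adjusted p under 0.05: COL4A5 and COL4A6 right of 0 and COL6A1, COL8A1 and COL13A1 left of 0 in the first panel, and COL1A1 and COL1A2 in the second.

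Against control, all 11 fibrillar genes were higher on the deposited values in each inducible line, and 8 in Tet1 and 6 in HOXA9 kept the call and direction under all 3 scalings. Of all genes, 53.9% in Tet1 and 54% in HOXA9 were higher on the deposited values, and 20.1% and 18% under all 3 scalings. COL1A2 was higher by 1.79 in Tet1 and by 1.34 in HOXA9 (limma adjusted p = 8.0e-09 and 6.4e-08), and COL1A1 by 1.22 and 0.66 (adjusted p = 5.2e-08 and 4.7e-06). COL3A1, which read 8.32 and 8.42 in Tet1, 8.14 and 8.08 in HOXA9 and 7.06, 7.11 and 7.04 in control, was higher by 1.30 and 1.04. Its neighbour on chromosome 2, COL5A2, read 7.26 and 7.34 in Tet1, 7.10 and 6.98 in HOXA9 and 6.08, 6.09 and 6.08 in control, and was higher by 1.22 and 0.96. None of these 4 genes overlapped between either inducible line and control, nor did 85.7% of all genes in Tet1 and 82.8% in HOXA9. Each of the 4 kept its call in both lines under the other scalings, with smaller differences. After quantile normalization COL5A2 was higher by 0.67 in Tet1 and by 0.40 in HOXA9. COL1A1 in HOXA9 was then higher by 0.46, and by 0.21 with equal medians. COL5A2 lay just above percentile 30 in control (6.02) and under it in shHMGA2, so its deposited differences may be overstated. COL5A1 read 8.52 and 8.51 in Tet1, 8.31 and 8.09 in HOXA9 and 7.94, 7.79 and 7.82 in control. Its call did not hold: the difference in HOXA9 was 0.35 on the deposited values (limma adjusted p = 0.0041), 0.03 after quantile normalization (adjusted p = 0.81) and -0.10 with equal medians, and 0.24 without HOXA9 replicate 1 (adjusted p = 0.065).

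After quantile normalization the median difference of Tet1 minus control was 0.46 over the fibrillar, 0.24 over the basement membrane and 1.18 over the beaded filament genes, and that of HOXA9 minus control was 0.34, 0.14 and 1.16. With equal array medians the same medians were 0.36, 0.34 and 0.65 in Tet1 and 0.21, 0.24 and 0.68 in HOXA9. The beaded filament median was the highest of the 3 under every scaling, with 5 genes of which COL6A5 and COL6A6 lay under the 30th percentile. No fibrillar gene passed between shHMGA2 and control, where 26.2% of all genes did (0 of 11 with limma; COL5A1 alone had an unadjusted p under 0.05, with a difference of -0.19). Their differences ran from -0.19 to 0.03.

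Outside these 3 classes, COL8A1 was called lower than control in shHMGA2, in Tet1 and in HOXA9. It encodes a short chain of the hexagonal network found in vessel walls and under the corneal endothelium. It read 9.36, 9.43 and 8.71 in shHMGA2, 8.35 and 8.43 in Tet1, 8.41 and 8.42 in HOXA9, and 9.58, 10.17 and 9.88 in control, which was above every other array. It fell by 0.71 in shHMGA2 (SE 0.18, limma adjusted p = 0.011), by 1.49 in Tet1 (SE 0.20, adjusted p = 2.4e-05) and by 1.46 in HOXA9 (SE 0.20, adjusted p = 3.2e-05). Without shHMGA2 replicate 3, the lowest of that group, it fell by 0.48 in shHMGA2 (adjusted p = 0.025). Under the other scalings its difference was -1.59 to -1.95 in the inducible lines.

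COL13A1, a transmembrane collagen of cell adhesion sites, read 8.40, 8.30 and 8.24 in shHMGA2 and 8.63, 8.46 and 8.86 in control, and fell by 0.33 (SE 0.09, limma adjusted p = 0.017). The groups did not overlap, as was so for 40.5% of all genes. The call was lost without control replicate 3 (difference -0.23, limma adjusted p = 0.055) and without shHMGA2 replicate 3 (difference -0.30, adjusted p = 0.063). COL14A1, a FACIT chain that binds the surface of fibrils, read 7.19 and 7.07 in Tet1, 7.02 and 6.96 in HOXA9 and 6.01, 6.02 and 6.12 in control. It was higher by 1.08 in Tet1 and by 0.94 in HOXA9 (limma adjusted p = 1.1e-07 and 3.2e-07), and by 0.38 to 0.61 under the other scalings. COL12A1, another FACIT chain, read 9.43 and 9.50 in Tet1, 9.58 and 9.73 in HOXA9 and 9.77, 10.11 and 10.18 in control. It did not overlap with control, nor did 85.7% of all genes in Tet1 and 82.8% in HOXA9. It differed from control by -0.56 in Tet1 and by -0.36 in HOXA9 (limma adjusted p = 0.00099 and 0.015), and under the other scalings by -0.32 to -1.02. Without control replicate 3, and without HOXA9 replicate 1, COL8A1 was the sole collagen called lower in HOXA9. Of the 10 FACIT genes, 4 were higher and 1 lower under all 3 scalings in each inducible line, against 20.1% of all genes higher and 21.5% lower in Tet1 and 18% higher and 20.5% lower in HOXA9.

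Smaller classes held 4 more genes that were higher in both inducible lines under all 3 scalings, as 20.1% of all genes were in Tet1 and 18% in HOXA9. They were COL7A1, the chain of the anchoring fibrils of skin, COL23A1, a transmembrane collagen, and the multiplexins COL15A1 and COL18A1, basement membrane zone proteins of which COL18A1 is the source of endostatin. COL7A1 was higher by 0.87 in Tet1 and 0.73 in HOXA9, COL23A1 by 0.89 and 0.69, COL15A1 by 0.91 and 0.80, and COL18A1 by 0.85 and 0.74. After quantile normalization the 4 differences ran from 0.36 to 0.71 in Tet1 and from 0.26 to 0.56 in HOXA9. None of these 4 passed between shHMGA2 and control (limma adjusted p of 0.14 to 0.89, with no unadjusted p under 0.05).

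**Figure D4:**
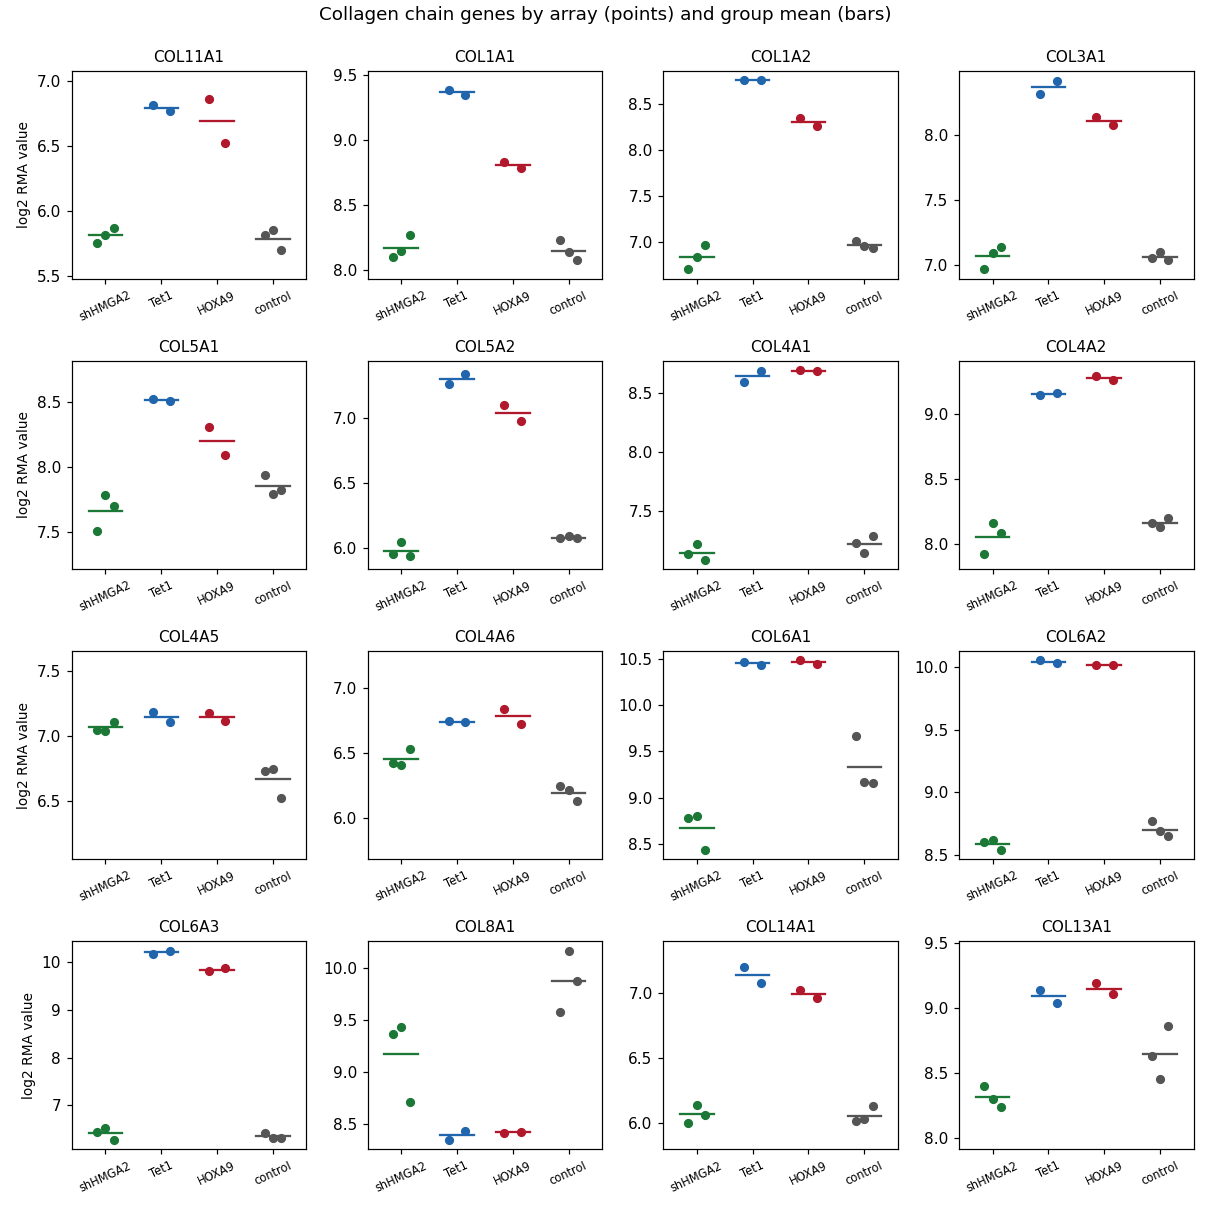
Log2 RMA level (y axis) of 16 collagen genes in each array (points) and group mean (bars), with shHMGA2, Tet1, HOXA9 and control from left to right; y axes differ between panels and levels are not comparable between genes. The Tet1 and HOXA9 points lie above the control points in every panel except COL8A1 on this deposited scale. COL4A5 and COL4A6 in both lines and COL5A1 in HOXA9 lost the call under both other scalings. COL13A1 in both lines and COL5A1 in Tet1 lost it with equal array medians alone. The shHMGA2 points lie apart from control for COL4A5, COL4A6, COL6A1, COL8A1 and COL13A1 among the genes called.

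Genes that handle collagen after translation moved in both directions. For single genes named from these lists and from the marker lists below, differences of Tet1 and HOXA9 from control are on the deposited values. Whether each of those differences held under the other scalings is not given. Of 16 measured genes of collagen folding and secretion, 1 was higher and 5 were lower in shHMGA2, where 13.6% of all genes were higher and 12.6% lower. The prolyl 4-hydroxylase subunit P4HA2 fell by 0.53, and the prolyl 3-hydroxylases P3H2 and P3H1 fell by 0.45 and 0.39. In Tet1, 8 were higher and 3 lower, and in HOXA9, 6 were higher and 4 lower, against 53.9% higher and 23.2% lower of all genes in Tet1 and 54% and 21.6% in HOXA9. P4HA1, the catalytic subunit that hydroxylates proline in new chains, was higher by 1.60 in Tet1 and 1.56 in HOXA9, and PLOD1, a lysyl hydroxylase, by 1.06 and 1.00. P3H2, which acts on type IV chains, fell by 2.84 in Tet1 and fell by 2.91 in HOXA9. After quantile normalization 6 were higher and 3 lower in Tet1, and 6 were higher and 4 lower in HOXA9, against 32.6% higher and 33.3% lower of all genes in Tet1 and 29.7% and 34% in HOXA9.

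Of 13 genes of procollagen processing and crosslinking, 2 were higher and 3 lower in shHMGA2 (13.6% and 12.6% of all genes). The crosslinking oxidase LOX fell by 0.52 and LOXL2, of the same family, fell by 0.26, and PCOLCE2, an enhancer of C-propeptide removal, rose by 0.51. In Tet1, 10 were higher and none lower, and in HOXA9, 9 were higher and none lower (limma, deposited values), whereas after quantile normalization 5 were higher and 2 lower in each. Of all genes, 53.9% in Tet1 and 54% in HOXA9 were higher on the deposited values, and 32.6% and 29.7% after quantile normalization. On the deposited values LOXL1 was higher by 0.97 in Tet1 and 0.86 in HOXA9, and BMP1, which trims the C-propeptide, by 0.94 and 0.69. Of 12 collagen receptors, 4 were lower and none higher in shHMGA2 (12.6% and 13.6% of all genes), led by the integrin subunit ITGA2 (-0.62). In Tet1 and in HOXA9, 9 were higher and 1 lower on the deposited values, and after quantile normalization 5 were higher and 2 lower in Tet1 and 4 higher and 3 lower in HOXA9. Beside the shares of all genes higher given above, 23.2% in Tet1 and 21.6% in HOXA9 were lower, and 33.3% and 34% after quantile normalization. ITGA10, the alpha subunit of another collagen-binding integrin, was higher by 2.53 in Tet1 and 2.61 in HOXA9.

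Of 10 genes of collagen degradation, 7 were higher and 3 lower on the deposited values in each inducible line, and 5 were higher and 3 lower after quantile normalization. Of all genes, 53.9% were higher and 23.2% lower in Tet1 and 54% and 21.6% in HOXA9, and after quantile normalization 32.6% and 33.3% in Tet1 and 29.7% and 34% in HOXA9. The interstitial collagenase MMP1 fell by 2.86 in Tet1 and fell by 2.99 in HOXA9, MMP2, a gelatinase, was higher by 1.80 and 1.35, and MMP14, the membrane-bound collagenase, was higher by 0.97 and 0.83. MMP14 fell by 0.69 in shHMGA2. Collagenase MMP13 read 6.21 ± 0.08 in Tet1 and 8.87 ± 0.17 in HOXA9 (SD, n = 2 each), and it was the only gene of these lists, beside PMEPA1, that passed between Tet1 and HOXA9 (-2.66). Its Tet1 level lay under percentile 30 of the Tet1 arrays (6.57), so it is not known to lie above background there. Of 9 TGF-beta ligands and targets, a pathway known to raise collagen transcription, 6 were higher and 1 lower in Tet1, and 5 were higher and 2 lower in HOXA9. TGFBI was higher by 2.65 and 2.97, the feedback inhibitor PMEPA1 by 3.43 and 2.78, and FN1, which encodes fibronectin, by 2.33 and 2.38. After quantile normalization 7 were higher and 2 lower in Tet1, and 5 were higher and 2 lower in HOXA9. In shHMGA2, 1 of the 9 was higher and 2 were lower, where 13.6% of all genes were higher and 12.6% lower. TGFB1 fell there by 0.63.

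Markers of other cells were read beside these results. Of 10 fibroblast genes other than collagens, 7 were higher and none lower in Tet1 and in HOXA9 on the deposited values, and their mean level was 6.42 to 6.44 in Tet1, 6.26 to 6.30 in HOXA9 and 5.68 to 5.71 in control. By group mean, 4 of the 10 lay above the 30th percentile in Tet1, 4 in HOXA9 and 3 in control. The list means themselves lay under that percentile in each of these groups (6.57 in Tet1, 6.57 in HOXA9 and 6.02 in control). Marker counts in the inducible lines are given on the deposited values alone. Of all genes, 53.9% were higher and 23.2% lower in Tet1 and 54% and 21.6% in HOXA9. DPT, a dermal matrix protein, was higher by 2.10 in Tet1 and 1.80 in HOXA9, from a control level under the 30th percentile. Osteoblast genes had 5 of 6 higher in each inducible line, with 1 lower in Tet1, and endothelial genes had 4 of 5 higher and 1 lower in each. In shHMGA2 1 of 10 fibroblast genes passed (PDGFRB, -0.37), while of 9 genes of the HEK293 kidney line, 5 were higher and none lower (13.6% and 12.6% of all genes). Their mean level was 7.42 to 7.63 in shHMGA2 and 6.59 to 6.69 in control, with HOXD10, under the 30th percentile in control, higher by 4.47 and NEFM by 1.65. Of the same 9 genes, 6 were higher and 1 lower in Tet1, and 5 were higher and 2 lower in HOXA9. Their mean level there was 7.09 to 7.15 in Tet1 and 6.98 to 7.11 in HOXA9. Of 7 genes known to be high in MDA-MB-231, all lay above the 30th percentile in each group, but 5 were lower in shHMGA2, with a mean of 12.3 to 12.5 there and 12.7 in control. The part of these markers in the collagen results was not tested.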

How the data were processed

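RNA from 1833 cells was hybridised to Affymetrix Human Gene 1.0 ST arrays, and the values deposited by the authors are on a log2 scale. The submitters' processing notes name RMA and R 2.11. The sources used here do not state whether the arrays were normalized together, and hold no detection call. RMA subtracts a background and sets arrays processed together to a common distribution, and differences of dim genes are compressed. Of 12 deposited columns, 10 were used. Of 33297 probe sets, 19460 carried 1 platform symbol, and the one with the highest mean was kept for each of 18417 genes. COL11A2 had 3 such probe sets, and a probe set shared by PNLIP and COL1A2 was left out.

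A limma 3.58.1 fit in R 4.3.3 over the 4 groups gave 4 comparisons with Benjamini-Hochberg adjusted p-values over all genes, and was tested on simulated data. With 10 arrays, 6 residual degrees of freedom limit the precision. Named genes were those called in shHMGA2 against control or Tet1 against HOXA9, those called with a log2 change of at least 1 against control on the deposited values that kept call and direction under both other scalings, and 10 chains of types I, III, IV, V and VI taken whatever their values. COL4A3, COL4A4, COL6A5, COL6A6, COL7A1, COL12A1, COL15A1, COL18A1, COL23A1 and COL26A1 were added after their values were seen. From each other list, called genes of the largest change were named. The members and lists were chosen with earlier results of these data known. Alternatives were the scaling, the averaged columns, a filter on dim genes, fits of 2 groups, an intensity trend, the mean of probe sets, a replicate block and leaving out each array.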

Additional observations from a re-analysis of the deposited data

How the results depend on the processing

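The count between shHMGA2 and control was 5 under every alternative that kept all arrays, and 4 to 6 when an array was left out. Of all genes, 23.2% to 33.9% passed under the former and 19.7% to 24.6% under the latter. Between Tet1 and HOXA9 it was 2, and it moved to 6 with the averaged columns counted as replicates, to 1 with an intensity trend, to 1 with the replicate block and to 0 to 1 when an array was left out. The share of all genes that passed between Tet1 and HOXA9 was 0.434%. It became 6.04% with the averaged columns, 0.489% with the trend and 0.375% with the block, so the rise with the averaged columns was not particular to collagens. Between HOXA9 and control 41 (75.7% of all genes) became 26 after quantile normalization (63.8%) and 26 with equal array medians (71.3%), and the count also moved when an array was left out. Between Tet1 and control 42 (77.1% of all genes) became 31 after quantile normalization (65.9%) and 28 with equal medians (73.4%). Of the named genes, signs turned for COL4A5 (-0.074) and COL4A6 (-0.025) in Tet1 and for COL4A5 (-0.075) in HOXA9 after quantile normalization, and for COL13A1 in Tet1 (-0.024) and COL5A1 in HOXA9 (-0.10) with equal medians. Over the 43 genes, 7 signs turned after quantile normalization and 4 with equal medians in Tet1, and 7 and 6 in HOXA9; with equal medians COL6A5 was then called lower in both lines (-0.37 and -0.36) and COL6A6 in HOXA9 (-0.20). The cause was not tested. With the replicate number as a block, COL1A2 no longer passed between Tet1 and HOXA9 (limma adjusted p = 0.077). The counts were then 5 for shHMGA2, 42 for Tet1 and 41 for HOXA9 against control, where 26.5%, 76.5% and 75% of all genes passed. Same-numbered shHMGA2 and control arrays correlated at 0.164, 0.140 and 0.00165 after removing group means, those of Tet1 and HOXA9 at 0.168, and not every array correlated best with its own number, so the numbers were not taken as pairs. Groups of 2 arrays, no detection calls and dim levels of many chains limit what could be detected between Tet1 and HOXA9.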

Other observations

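The X-linked neighbours of COL4A5 and COL4A6 also differed between shHMGA2 and control. IRS4, an insulin receptor substrate and the next gene beyond COL4A5, read 10.80 ± 0.27 in shHMGA2 and 5.67 ± 0.10 in control (SD, n = 3 each), a log2 difference of 5.13 (limma adjusted p = 7.3e-11). Its control level lay under percentile 30 of the control arrays (6.02) and is not known to lie above background, so the difference may understate the change. On the COL4A6 side, ATG4A was higher by 0.42 (limma adjusted p = 0.0086) and PSMD10 by 0.30 (adjusted p = 0.0043), whereas GUCY2F beyond IRS4 differed by 0.03 (adjusted p = 0.80). COL4A5 and COL4A6 themselves were higher by 0.40 and 0.26. The order of genes is that of RefSeq on GRCh38.p14.

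Beside COL6A1 on chromosome 21, PCBP3 was lower in shHMGA2 by 0.61 (limma adjusted p = 0.00092) and SLC19A1 was higher by 0.87 (adjusted p = 3.1e-05). On the other side, FTCD beyond COL6A2 differed by -0.02 (limma adjusted p = 0.88). Of all genes, 26.2% passed between shHMGA2 and control. FILIP1L, near COL8A1 on chromosome 3, was higher than control by 2.25 in Tet1 and by 2.26 in HOXA9 on the deposited values. CMSS1, which lies between them, was higher by 0.24 and 0.22, and COL8A1 itself fell by 1.49 and 1.46. On the same scale GULP1, beside COL3A1 and COL5A2 on chromosome 2, was lower by 0.91 in Tet1 and by 0.90 in HOXA9. COL3A1 and COL5A2 were higher in both, as were TFPI beyond GULP1 (0.90 and 1.15) and SLC40A1 on the other side (1.44 and 1.60). WDR75, between COL5A2 and SLC40A1, was lower by 0.27 and 0.33. Of all genes, 53.9% were higher and 23.2% lower in Tet1, and 54% and 21.6% in HOXA9.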
